A study of Drosophila melanogaster with 18 samples.

Results

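The proteasome subunit genes of the fly were taken by symbol: names that start with Prosalpha or Prosbeta, or with Rpn or Rpt followed by a digit. This rule found 47 of the 17658 genes in the deposited tables, among them 32 numbered subunits and 15 copies whose symbols carry a T or R suffix. RNA was measured in whole adult Drosophila melanogaster females, 1 to 5 days old, as pools of 10 flies. The Tudor-SN knockdown flies were w;;Da-GAL4/UAS-Tudor-SN RNAi, in which the ubiquitous daughterless driver expresses an RNAi hairpin against Tudor-SN, a conserved RNA-binding nuclease of stress granules. The control flies were w;;+/UAS-Tudor-SN RNAi and carried the same hairpin insertion (Bloomington #34865) with no driver, so the knockdown groups differ from them by the driver as well as by the knockdown. Flies of either genotype stayed in normoxia or spent 6 h at 6% O2 or at 2% O2, which gave 6 groups of 3 libraries. All flies ate a mashed potato diet at 25 °C.

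The 26S proteasome degrades proteins tagged with ubiquitin. Its 20S core is a barrel of alpha rings around beta rings, and the beta1, beta2 and beta5 subunits carry the caspase-like, trypsin-like and chymotrypsin-like proteolytic sites. The 19S cap recognises ubiquitin through Rpn subunits, removes it through Rpn11 and unfolds the substrate with a ring of Rpt ATPases. In flies the transcription factor cnc can raise subunit genes as a group when proteasome capacity falls, and several T-suffixed and R-suffixed copies are known from the male germline.

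Values are FPKM, fragment numbers corrected for transcript length and for the mapped fragments of the library, which the authors deposited and which are divided here by 1 scaling factor per library (0.947 to 1.036). FPKM carries no read totals, so no counting interval can be given. The spacing of low values put the depth of 17 libraries between 0.967 and 1.02 times that of the median library, and that of knockdown 2% O2 replicate 3 at 0.874 times. In the check of the targeted gene, Tudor-SN averaged 19.9, 15.9 and 5.56 scaled FPKM in knockdown flies in normoxia, 6% O2 and 2% O2, against 214, 217 and 168 in control flies. The exact 2-sided permutation p was 0.1 at each oxygen level, the smallest that 3 against 3 libraries allow. The labelled sex was checked on 7 testis and accessory gland markers, which summed to at most 1.003 scaled FPKM in any library, with SP listed at 0 in all 18. Throughout, a difference is on the log2(scaled FPKM + 1) scale and is called at a limma adjusted p below 0.05, with the Benjamini-Hochberg adjustment over the 9921 genes tested. The value after ± is the standard error of the fitted difference, and SD is named where it is meant. Each limma p-value sets a difference against the spread between libraries within groups. That spread is 1 estimate per gene, shared by all 6 groups and drawn toward that of genes of similar level.

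The 32 numbered subunits were all abundant and close to one another in level. Per length, the 7 alpha genes had a median of 275 scaled FPKM and the 7 beta genes a median of 281, above the 176 of the 6 Rpt genes and the 172 of the 12 Rpn genes. Among the alpha genes, which form the gated outer rings of the core, means over 18 libraries ran between 220 for Prosalpha1 and 370 for Prosalpha2. The listed Prosalpha1 value may be too low, since its reads may have been split with its neighbouring copy CG30382, described below. The 2 genes together had group means of 386 to 499 scaled FPKM, so the place of Prosalpha1 among the alpha genes is uncertain. The beta genes lay between 252 for Prosbeta3 and 308 for Prosbeta6, and the catalytic Prosbeta1, Prosbeta2 and Prosbeta5 stood at 273, 281 and 261. The ATPase genes spanned 126 for Rpt4 to 242 for Rpt6. The non-ATPase genes spanned 100 for Rpn1, a scaffold subunit, to 236 for Rpn11, the deubiquitinase. Rpt4 ran from 121 to 140.1 (median 129) scaled FPKM in knockdown libraries and from 114 to 128 (median 122) in control libraries. Rpn1 ran from 98.8 to 109 (median 104) in knockdown libraries and from 90.7 to 103 (median 97.7) in control libraries. The genotypes overlapped in both of these genes, the lowest of the ATPase and of the non-ATPase genes. By mean level, as listed, the 32 genes ranked between 308 and 1234 of the 9921 genes tested.

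**Figure D1:**
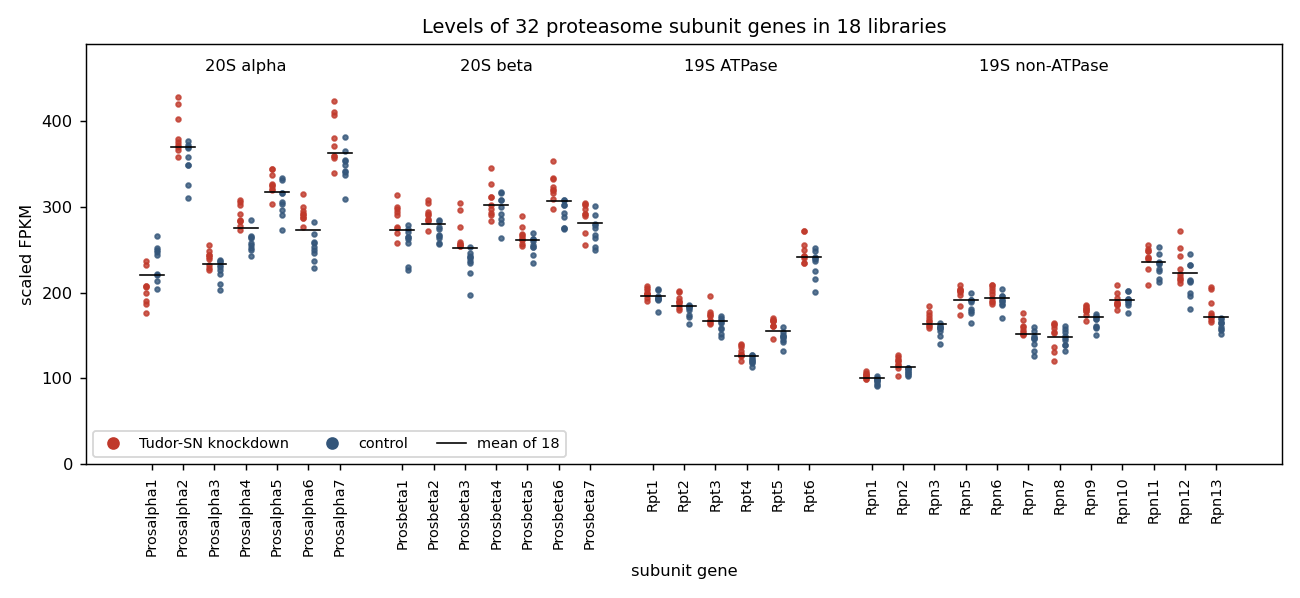
Scaled FPKM (y axis) of each numbered proteasome subunit gene (x axis), grouped by sub-complex; each point is 1 library, with 9 knockdown libraries to the left and 9 control libraries to the right, and the bar is the mean of 18. The alpha and beta genes of the 20S core lie above most Rpt and Rpn genes of the 19S cap, and the knockdown points sit slightly above the control points for most genes but below them for Prosalpha1.

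The level of a subunit followed the length of its transcript: across the 32 genes, mean level and exonic length had a Pearson r of -0.85 on log2 length and a Spearman rho of -0.79. This is a description across genes of the same libraries, with alpha and beta genes both shorter and higher in level than the 19S genes. FPKM is itself divided by transcript length, and the relation of level to length was not computed for other genes. Prosalpha1 entered at its listed value, which may be too low. In each library the median core gene stood 1.55 to 1.71 times above the median cap gene. Core medians lay between 250 and 310 scaled FPKM, and cap medians between 154 and 191. The genes are spread over the genome, with 4 on arm 2L, 10 on 2R, 5 on 3L, 9 on 3R and 4 on the X chromosome. The closest pair of tested subunits by position, Rpn9 and Rpt5 on 3R, are 19413 bases apart.

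Subunit genes varied less between libraries than the typical gene of their abundance. The coefficient of variation over all 18 libraries had a median of 6.51% among the 32 subunits, against 9.92% among 895 other genes in the same range of levels, and 31 of 32 subunits lay below that value. Rpt1, an ATPase, was the steadiest at 3.64%. Prosalpha1, at 11.5%, was the exception above 9.92%. The highest library exceeded the lowest by a factor of 1.17 to 1.55, depending on the gene.

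The 15 copies with a suffix in the deposited tables were near or at 0 in these females. CG30382, which the reference annotation calls Prosalpha1R, is not among these 15. Its group means were 195 to 252 scaled FPKM, values that may hold reads of Prosalpha1. Prosbeta4R1, Prosbeta4R2, Prosbeta5R1 and Prosbeta5R2 were listed at 0 in all 18 libraries, but so were all 38 genes of the mitochondrial genome, so a listed 0 need not mean that a transcript was missing. None of the 15 copies reached the mean of 1 FPKM needed for a test. Rpt3R, a copy of the ATPase Rpt3, came closest, with a mean of 0.896 scaled FPKM. It had 0.804, 0.582 and 0.649 scaled FPKM in the knockdown normoxia libraries, against 2.28, 1.3 and 1.03 in the control normoxia libraries. At 6% O2 it had 0.544, 0.501 and 0.798 in knockdown libraries, against 0.951, 1.02 and 1.18 in control libraries. At 2% O2 the values were 0.62, 0.652 and 0.527 in knockdown libraries and 1.17, 0.745 and 0.784 in control libraries. The knockdown libraries were the lower ones at each oxygen level with no overlap, but the exons of Rpt3R overlap Alg12 on the opposite strand, and strand-specific counting is not stated. The next highest copy, Rpt6R, averaged 0.249 scaled FPKM, and its knockdown and control libraries overlapped at each oxygen level.

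Libraries differed in how many subunits lay above their own mean. In control 6% O2 replicate 1, 32 of 32 subunits were below their own mean over 18 libraries, by 0.19 on the log2 scale on average. In knockdown 2% O2 replicate 2, 29 of 32 were above it, by 0.13 on average. Shares of all tested genes below or above their own mean in each library are not given. A shift of the subunits and a shift of the whole library therefore cannot be told apart here. Core and cap genes deviated alike in both libraries, by -0.19 and -0.18 in the control 6% O2 library and by 0.15 and 0.12 in the knockdown 2% O2 library. Other libraries split evenly, with 16 of 32 subunits above their own mean in control 2% O2 replicate 2 and in knockdown 6% O2 replicate 1. The 9 knockdown libraries averaged between 0.01 and 0.13 over the 32 genes, and the 9 control libraries between -0.19 and 0.02. The 3 lowest knockdown libraries, each at 0.01, lay below the highest control library, normoxia replicate 2, at 0.02. The scaling factors entered these values: they were lowest, at 0.947 to 0.977, in the 3 knockdown 2% O2 libraries.

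**Figure D2:**
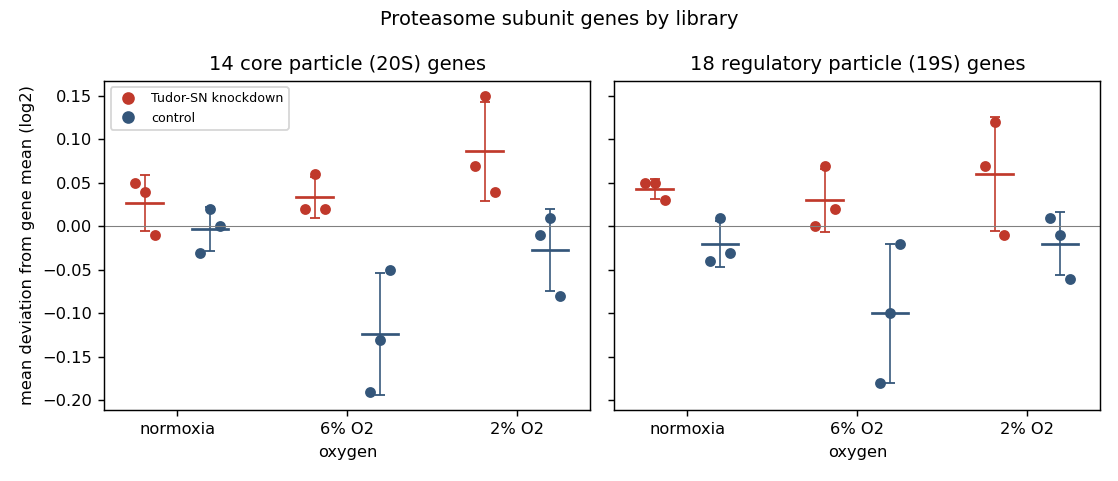
Mean deviation of subunit genes from their own 18-library mean (y axis, log2) in each library, for the 14 core genes (left panel) and the 18 cap genes (right panel), by oxygen level (x axis); points are libraries, bars are group means and whiskers are SD (n = 3). Knockdown libraries lie at or above most control libraries, and the 3 control 6% O2 libraries spread between -0.19 and -0.02.

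In the comparison of genotypes, which asks what Tudor-SN knockdown does to the transcriptome, most subunit genes were slightly higher in knockdown flies. Averaged over the 3 oxygen levels, 25 of 32 subunits rose and 1, Prosalpha1, fell, where 20.2% of all tested genes rose and 21.6% fell (41.7% called in either direction). The median subunit difference was 0.10 on the log2 scale, against 0.00 for all tested genes. The sizes were small: no subunit rose by more than the 0.21 of Prosalpha6, a factor of 1.16. Unscaled values gave 20 higher and 1 lower, and quantile normalisation 14 higher and 1 lower. Of 8 female germline markers, 4 were called higher and 1 lower on average (3 and 2 after quantile normalisation), with 2 higher and 0 lower in normoxia, and 1 higher and 1 lower both at 6% O2 and at 2% O2. Over all tested genes 5.90% rose and 10.1% fell in normoxia, 12.0% and 12.6% at 6% O2, and 11.7% and 8.50% at 2% O2. The sum of the germline markers ran from 1202 to 1222 scaled FPKM in knockdown normoxia libraries, against 1005 to 1109 in control normoxia libraries. The germline sums were 1133 to 1151 in knockdown and 1083 to 1158 in control libraries at 6% O2, and 1100 to 1240 in knockdown and 1067 to 1127 in control libraries at 2% O2. Muscle markers (0 higher, 4 lower of 7) and midgut markers (1 higher, 4 lower of 8) went the other way, with median differences of -0.34 and -0.31. None of the 8 eggshell markers was called, by limma, in this comparison, and their sums varied between 231 and 7625 scaled FPKM over the 18 libraries. The part of these markers in the subunit result was not tested, and in whole flies more cells of a type and more RNA per cell cannot be told apart.

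Of the alpha genes, 6 rose and 1 fell. Prosalpha6 ran from 277 to 315 (median 291) scaled FPKM in the 9 knockdown libraries, against a range from 229 to 283 (median 253) in the 9 control libraries. Only the top control library, normoxia replicate 2, reached into the knockdown range (log2 difference 0.21 ± 0.0325, limma adjusted p = 0.000179). Prosalpha4 ran from 273 to 309 (median 285) in knockdown libraries, against a range from 242 to 285 (median 258) in control libraries, with the same control library inside the knockdown range (0.16 ± 0.032, limma adjusted p = 0.00131). Prosalpha2, the subunit gene with the highest listed level, rose by 0.13 (limma adjusted p = 0.00192), and Prosalpha3, Prosalpha5 and Prosalpha7 rose by 0.09 to 0.12.

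Of the beta genes, 6 of 7 rose. Prosbeta3, a structural subunit with no proteolytic site, ran from 255 to 305 (median 256.5) scaled FPKM in the 9 knockdown libraries, against a range from 197 to 253 (median 240.5) in the 9 control libraries. Each knockdown library was above every control library (0.19 ± 0.0316, limma adjusted p = 0.000303). The catalytic genes Prosbeta1, Prosbeta2 and Prosbeta5 rose by 0.14, 0.11 and 0.06, and Prosbeta7 by 0.08. Prosbeta6, the most abundant beta gene, ran from 298 to 354 (median 320.2) scaled FPKM in knockdown libraries, against a range from 274 to 308 (median 293) in control libraries, with some overlap (0.15 ± 0.0317, limma adjusted p = 0.00225). The remaining beta gene, Prosbeta4, missed the threshold (0.05 ± 0.0342, limma adjusted p = 0.278).

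In the cap, 5 of 6 Rpt genes and 8 of 12 Rpn genes rose. Rpt5, whose tail docks into the core and helps open its gate, rose most among the ATPases (0.15 ± 0.0297, limma adjusted p = 0.00148). Rpn13, a ubiquitin receptor that also anchors the deubiquitinase Uch-L5, ran from 166 to 206 (median 174) scaled FPKM in knockdown libraries, against a range from 152 to 171 (median 164) in control libraries (0.15 ± 0.0249, limma adjusted p = 0.000278). The 3 knockdown 2% O2 libraries gave the top values, and the lowest knockdown libraries overlapped the control range. Rpn2, the scaffold that holds Rpn13, rose by 0.12, and the other large scaffold Rpn1 by 0.09. The lid subunits Rpn3, Rpn5, Rpn7, Rpn9 and Rpn12 rose by 0.10 to 0.13. Rpn6 (0.06), Rpn8 (0.01), Rpn10 (-0.00), Rpn11 (0.05) and Rpt1 (0.04) did not pass the test.

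**Figure D3:**
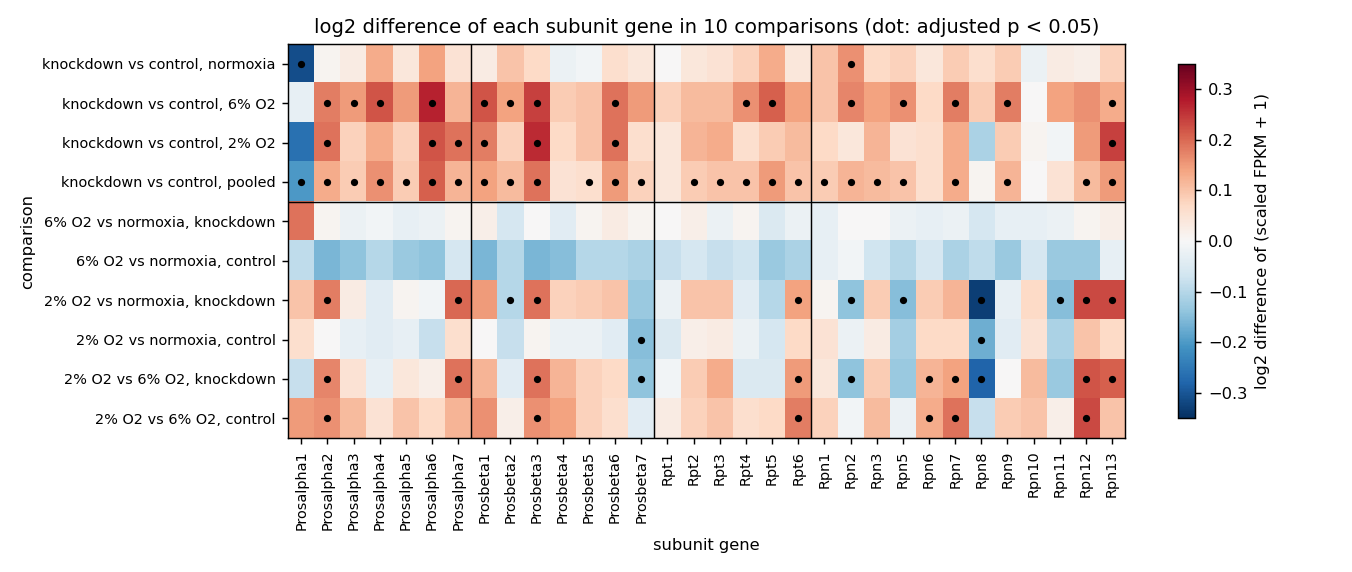
The log2 difference (colour; red higher, blue lower in the group named first) of each subunit gene (x axis, sub-complexes separated by lines) in 10 comparisons (y axis); a dot marks a limma adjusted p below 0.05. The 4 upper rows, knockdown against control, are mostly red apart from Prosalpha1, and the rows for 2% O2 mix rises such as Rpn12 and Rpn13 with falls such as Rpn8.

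Taken at 1 oxygen level each, the comparisons used 3 libraries against 3, share their libraries with the average above, and called fewer subunits. In normoxia 1 subunit rose and 1 fell, where 16.0% of all genes were called (5.90% higher, 10.1% lower). The riser was Rpn2, with 124.5, 121.5 and 119.5 scaled FPKM in knockdown libraries, against 112, 109 and 106 in control libraries, a gap with no overlap (0.16 ± 0.0507, limma adjusted p = 0.0438). Rpn2 lost its call in each of the 6 leave-one-out fits, unscaled and without the filter, which is 8 of its 16 alternatives, and Prosalpha1 kept its call in 11 of 17. The 17 include a sum with CG30382, described below, which is not a separate check. The normoxia count was 0 without control replicate 1 or 3 or knockdown replicate 1 or 2, 1 without knockdown replicate 3 and 3 without control replicate 2.

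At 6% O2, 15 subunits rose and 0 fell by limma, where 12.0% of all genes rose and 12.6% fell (24.7% called). The risers were 4 alpha, 4 beta, 2 Rpt and 5 Rpn genes, and the median subunit difference was 0.15. Prosalpha6 had 292, 287 and 291 scaled FPKM in knockdown libraries, against 229, 237 and 257.5 in control libraries (0.27 ± 0.0563, limma adjusted p = 0.00513). Prosbeta3 had 256, 259.6 and 255 in knockdown libraries, against 197, 223 and 235 in control libraries (0.24 ± 0.0548, limma adjusted p = 0.00828). The knockdown libraries lay close together for both genes, while control replicate 1 was the lowest library of the comparison. Rpt5 had 161, 168 and 162 scaled FPKM in knockdown libraries, against 132, 142 and 149 in control libraries (0.21 ± 0.0515, limma adjusted p = 0.0103). Rpn9, a lid subunit, had 174, 178.5 and 181 in knockdown libraries, against 151, 159 and 161 in control libraries (0.18 ± 0.0446, limma adjusted p = 0.0122). Again the groups did not overlap and control replicate 1 was lowest. The count of subunits called at 6% O2 moved when single libraries were left out. It was 2 without control replicate 1, 9 without control replicate 2, 3 without knockdown replicate 2 and 8 without knockdown replicate 3. Shares of all genes called in these fits are not given, so the moves cannot be read as particular to the subunits. It was 4 when only these 6 libraries were fitted and 2 after quantile normalisation. Prosalpha6 was called in each of its 16 alternative fits.

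At 2% O2, 7 subunits rose and 0 fell by limma, where 11.7% of all genes rose and 8.50% fell (20.2% called). They were 3 alpha, 3 beta and 1 Rpn gene, with no Rpt gene. Rpn13 had 205, 206 and 188 scaled FPKM in knockdown libraries, against 169, 171 and 166 in control libraries (0.24 ± 0.0431, limma adjusted p = 0.00117). Prosbeta3 had 296, 305 and 276.5 in knockdown libraries, against 237, 253 and 242 in control libraries (0.26 ± 0.0548, limma adjusted p = 0.00384). In either gene the lowest knockdown library was replicate 3, the shallower one, and it still lay above the control range. Prosalpha2 had 421, 429 and 403 scaled FPKM in knockdown libraries, against 372, 377 and 349 in control libraries (0.19 ± 0.0472, limma adjusted p = 0.0108). Prosalpha6 had 289.8, 315 and 277 in knockdown libraries, against 253, 259 and 246 in control libraries (0.22 ± 0.0563, limma adjusted p = 0.0139). Neither of these 2 genes overlapped between the genotypes. Without control replicate 3 or without knockdown replicate 2 the count was 3. Unscaled values gave 2 higher and 1 lower, quantile normalisation 1 higher, array weights 16 higher and 2 lower, and a fit of these 6 libraries alone 2 higher.

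**Figure D4:**
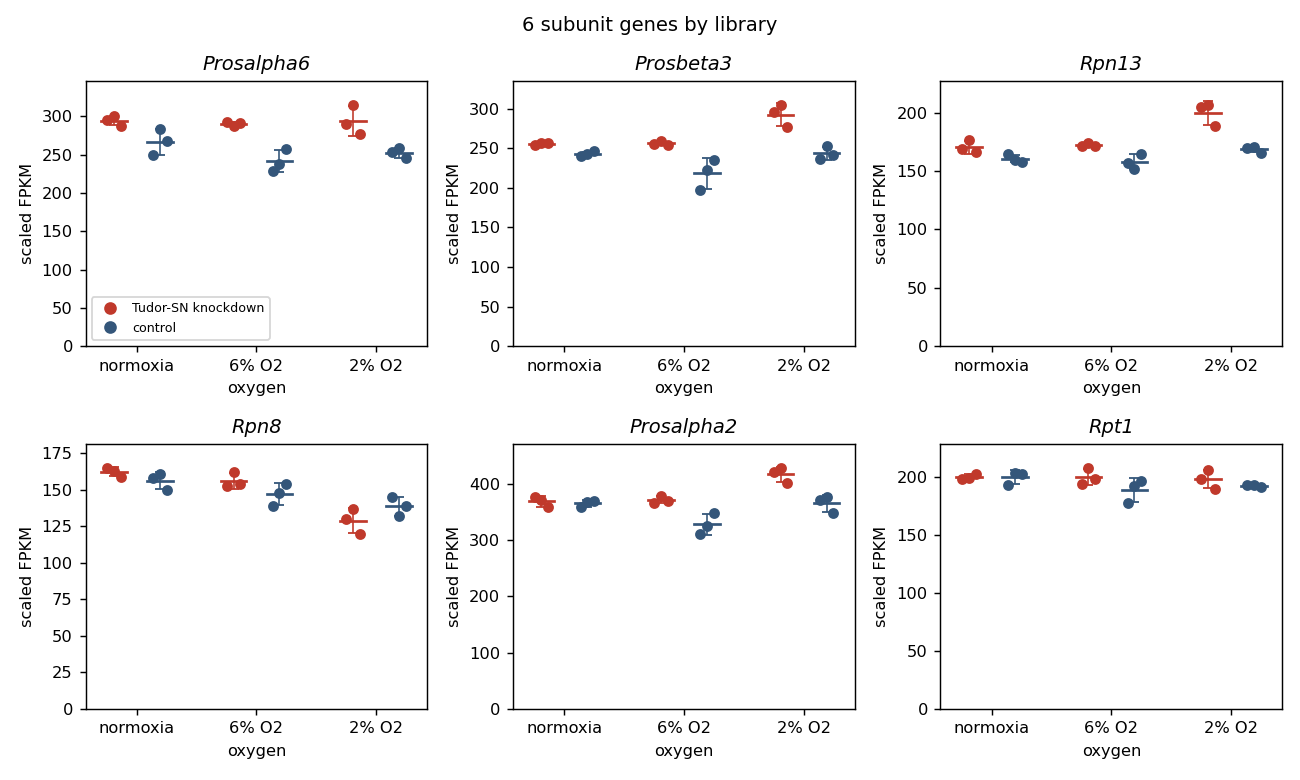
Scaled FPKM (y axes, starting at 0) of 6 subunit genes in every library by oxygen level (x axes); points are libraries, bars are group means and whiskers are SD (n = 3). Prosalpha6 and Prosbeta3 lie higher in knockdown flies, Rpn13 and Prosalpha2 are highest in knockdown flies at 2% O2, Rpn8 is lowest in knockdown flies at 2% O2, and Rpt1 was called in no comparison.

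Prosalpha1 was the subunit that fell. It had 176.5, 190.2 and 206 scaled FPKM in the knockdown normoxia libraries, against 248, 214 and 249.8 in the control normoxia libraries, with no overlap (-0.31 ± 0.0973, limma adjusted p = 0.0426). At 6% O2 it had 237, 186 and 232 in knockdown libraries and 205, 220.5 and 244 in control libraries, which overlapped (-0.03 ± 0.0973, limma adjusted p = 0.805). At 2% O2 it had 199.6, 208 and 208 in knockdown libraries and 253, 266 and 222 in control libraries, which did not overlap but missed the threshold (-0.26 ± 0.0973, limma adjusted p = 0.0684). Averaged over oxygen levels the difference was -0.20 ± 0.0562, limma adjusted p = 0.00984, and this call held in each of 28 alternative fits. Other named subunits had 27 in that comparison. The additional fit is the sum with CG30382 described below, which moves with Prosalpha1 in every library and is not a separate check.

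The level of Prosalpha1 cannot be read apart from that of a neighbouring copy. Prosalpha1 (FBgn0263121; 2R, 7827303 to 7828678, minus strand, build BDGP6) lies 1734 bases from CG30382 (FBgn0050382; 2R, 7830413 to 7831771, minus strand), which the reference annotation calls Prosalpha1R. The symbol in the deposited tables is CG30382, so the naming rule does not take it. In each of the 18 libraries the 2 genes had nearly the same value, with CG30382 at 1.0204 to 1.0233 times Prosalpha1. The exonic length of Prosalpha1 is 1.0179 times that of CG30382, so the pair carried nearly equal fragment numbers everywhere, and reads of the copies may have been split between them. Summed before the fit, a choice made after seeing the data, the pair differed by -0.31 in normoxia (limma adjusted p = 0.0438), -0.03 at 6% O2 (0.802), -0.26 at 2% O2 (0.0702) and -0.20 on average (0.0102). Exons of Prosalpha1 also overlap phr on the opposite strand.

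**Figure D5:**
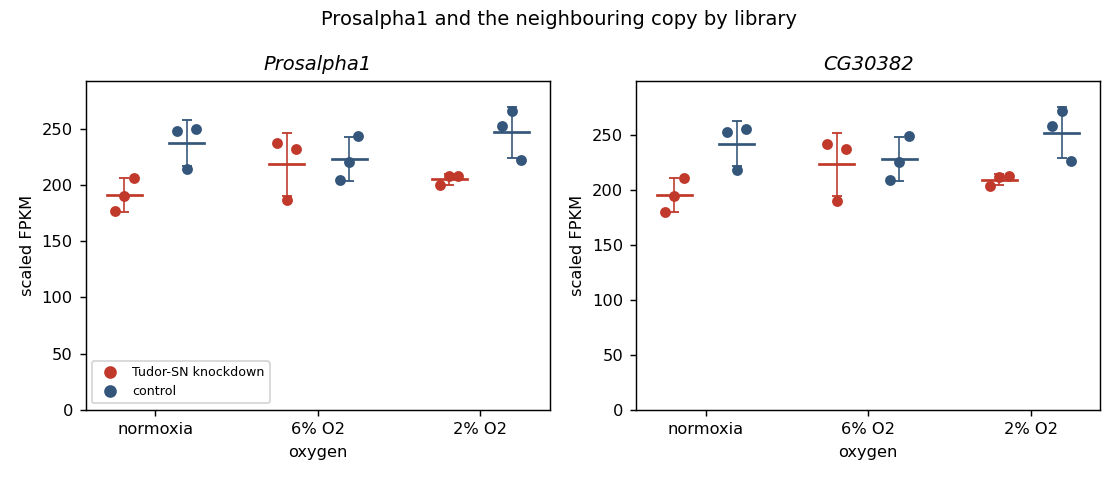
Scaled FPKM (y axes, starting at 0) of Prosalpha1 and of the neighbouring copy CG30382 in every library by oxygen level (x axes); points are libraries, bars are group means and whiskers are SD (n = 3). The panels are nearly identical, and knockdown libraries lie below control libraries in normoxia and at 2% O2 but not at 6% O2.

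Exons of 13 of the 32 subunits overlap a gene on the opposite strand. Of the 13, 11 rose and 1 fell on average over oxygen levels, and of the 19 others, 14 rose and 0 fell by limma. Over all tested genes 20.2% rose and 21.6% fell, and these were not divided by such overlap. Between transcript length and the genotype difference, Spearman's rho across the 32 subunits was 0.44 in normoxia, -0.24 at 6% O2 and -0.34 at 2% O2, and -0.10 for the average. Among 882 other genes in the same range of levels these were 0.23, -0.01, -0.16 and -0.02.

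At 6% O2 against normoxia, no subunit was called in either genotype. The oxygen comparisons share their libraries with the genotype comparisons above and are not independent of them. In control flies limma called 0 of 32 subunits and 0.00% of all genes. All 32 estimates were negative, with a median of -0.10 (-0.00 over all tested genes) and a range of -0.16 to -0.01. Of them, 12 had an unadjusted p below 0.05. The subunits share the same libraries, so their signs are not independent of one another. Shares of all genes with a negative estimate or an unadjusted p below 0.05 are not given. Prosalpha2 had the smallest p, with 311, 325 and 349 scaled FPKM in control 6% O2 libraries, against 358.5, 369 and 370.2 in control normoxia libraries (-0.16 ± 0.0472, limma adjusted p = 0.188). The 3 control 6% O2 libraries were below the 3 normoxia libraries, and replicate 1 was the lowest. Eggshell markers summed to 3953 to 7625 scaled FPKM in control 6% O2 libraries, against 527 to 4338 in control normoxia libraries, and their part was not tested. In knockdown flies limma called 0 of 32 subunits, where 0.625% of all genes were called (0.585% higher, 0.0403% lower), and 0 had an unadjusted p below 0.05. Estimates there lay between -0.06 and 0.19 with a median of -0.01. The difference between the 6% O2 responses of the genotypes was positive for 32 of 32 subunits (median 0.09, and 0.02 after quantile normalisation). Its median over all tested genes was 0.01. Limma called 0 of the subunits and 0.00% of all genes, with 2 subunits at an unadjusted p below 0.05. The limits on signs and unadjusted p given for control flies hold here too. None of the alternative settings and no leave-one-out fit called a subunit in these 3 comparisons.

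The small negative values of control flies at 6% O2 went with transcript length: longer subunits moved less, with a Spearman rho of 0.67 across 32 genes, beside 0.29 across 882 other tested genes in the same range of levels. For the difference of the 6% O2 responses the values were -0.77 for the subunits and -0.32 for those other genes. Length, level and sub-complex go together among the subunits and cannot be told apart here.

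At 2% O2 against normoxia, subunits were called less often than all genes, 6.25% of them in control flies and 34.4% in knockdown flies. Their estimates split in direction in both genotypes. In control flies 0 rose and 2 fell, where 15.4% of all genes rose and 14.7% fell (30.1% called). Rpn8, the partner that holds the deubiquitinase Rpn11 in an active pair, had 145, 132 and 139 scaled FPKM in control 2% O2 libraries, against 158, 161 and 149.8 in control normoxia libraries. The 2% O2 libraries were the lower ones without overlap (-0.17 ± 0.054, limma adjusted p = 0.0271). Prosbeta7, a structural beta subunit, had 280.5, 250 and 253 in control 2% O2 libraries, against 279, 301 and 290.2 in control normoxia libraries, and the groups overlapped (-0.15 ± 0.0541, limma adjusted p = 0.0441). The count was 0 without control normoxia replicate 2, without control 2% O2 replicate 2 or 3, and with only these 6 libraries fitted, and 1 without control normoxia replicate 1 or 3, after quantile normalisation, with no filter on low values, with a replicate block and with array weights.

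In knockdown flies at 2% O2 against normoxia, 6 subunits rose and 5 fell, where 28.5% of all genes rose and 27.0% fell (55.4% called). The split depended on the scaling: unscaled values gave 1 higher and 7 lower, and quantile normalisation 1 higher and 8 lower. Rpn8 fell and Rpn13 rose under each of the 16 alternatives. Rpn8 had 130.3, 137 and 120.1 scaled FPKM in knockdown 2% O2 libraries, against 165, 163 and 159 in knockdown normoxia libraries (-0.33 ± 0.054, limma adjusted p = 9.1e-05). Rpn13 had 205, 206 and 188 in knockdown 2% O2 libraries, against 169, 177 and 166 in knockdown normoxia libraries (0.23 ± 0.0431, limma adjusted p = 0.000352). Groups did not overlap in either gene.

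The other risers in knockdown flies were Prosalpha2, Prosalpha7, Prosbeta3, the lid subunit Rpn12 and the ATPase Rpt6. Prosalpha2 had 421, 429 and 403 scaled FPKM in knockdown 2% O2 libraries, against 376.5, 372 and 359 in knockdown normoxia libraries (0.18 ± 0.0472, limma adjusted p = 0.00483). Prosalpha7 had 411.5, 424 and 407 in knockdown 2% O2 libraries, against 381, 360 and 339 in knockdown normoxia libraries (0.20 ± 0.0571, limma adjusted p = 0.00689). Prosbeta3 had 296, 305 and 276.5 in knockdown 2% O2 libraries, against 255, 256.5 and 256 in knockdown normoxia libraries (0.19 ± 0.0548, limma adjusted p = 0.00774). All 3 genes were higher in each 2% O2 library than in any normoxia library, but each lost its call both unscaled and after quantile normalisation. Rpn12 rose by 0.23 and Rpt6 by 0.14.

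The fallers besides Rpn8 were Rpn11, Rpn2, the lid subunit Rpn5 and the catalytic Prosbeta2. Rpn11 had 228, 239 and 208.5 scaled FPKM in knockdown 2% O2 libraries, against 249, 251 and 249 in knockdown normoxia libraries (-0.15 ± 0.0539, limma adjusted p = 0.0264). Rpn2 had 112, 116 and 103 in knockdown 2% O2 libraries, against 124.5, 121.5 and 119.5 in knockdown normoxia libraries (-0.14 ± 0.0507, limma adjusted p = 0.0268). Rpn5 had 198, 185 and 174 in knockdown 2% O2 libraries, against 209, 204.5 and 202.5 in knockdown normoxia libraries (-0.15 ± 0.0547, limma adjusted p = 0.032). The 2% O2 libraries were lower without overlap in these genes, and replicate 3 was lowest in each. Prosbeta2 fell by 0.10 on the log2 scale (limma adjusted p = 0.033). Without the shallower knockdown 2% O2 replicate 3, 10 subunits rose and 1 fell, and Rpn11, Rpn2, Rpn5 and Prosbeta2 lost their calls. Without knockdown 2% O2 replicate 2 the count turned to 5 higher and 6 lower. It was 6 higher and 1 lower without knockdown normoxia replicate 1, and 5 higher and 1 lower both without knockdown normoxia replicate 2 and with only these 6 libraries fitted. Array weights gave 14 higher and 5 lower. Between the same groups, 2 of 8 germline markers rose and 5 fell (median -0.34), 0 of 8 eggshell markers rose and 3 fell by limma (median -1.60), and the part of these markers was not tested.

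The comparisons of 2% O2 with 6% O2 use the same 2% O2 libraries again. In knockdown flies 8 subunits rose and 3 fell, where 26.2% of all genes rose and 25.5% fell (51.7% called). Rpn8 had 130.3, 137 and 120.1 scaled FPKM in knockdown 2% O2 libraries, against 153, 162.5 and 154 in knockdown 6% O2 libraries, with no overlap (-0.28 ± 0.054, limma adjusted p = 0.000511). Rpn13 had 205, 206 and 188 in knockdown 2% O2 libraries, against 171, 174 and 172 in knockdown 6% O2 libraries, also with no overlap (0.21 ± 0.0431, limma adjusted p = 0.000762). Prosalpha2 had 421, 429 and 403 scaled FPKM in knockdown 2% O2 libraries, against 367, 379 and 370.3 in knockdown 6% O2 libraries (0.17 ± 0.0472, limma adjusted p = 0.00799). Of the 3 genes, only Rpn8 kept its call without scaling. Prosalpha7 (0.19), Prosbeta3 (0.19), Rpn6 (0.12), Rpn7 (0.14), Rpn12 (0.22) and Rpt6 (0.15) rose, and Rpn2 (-0.14) and Prosbeta7 (-0.14) fell. The groups overlapped in Prosbeta7, which lost its call in 7 of 16 alternatives, and Rpn2 lost its call in 4 of 16. Prosbeta3 lost its call unscaled and after quantile normalisation, and Prosalpha7 unscaled. Without knockdown 2% O2 replicate 3, 11 rose and 1 fell. Unscaled values gave 0 higher and 6 lower, and quantile normalisation 2 higher and 6 lower. Array weights gave 15 higher and 4 lower, and a fit of these 6 libraries alone 5 higher and 1 lower. Without knockdown 6% O2 replicate 1 the count was 4 higher and 3 lower, and without replicate 3 it was 5 higher and 1 lower.

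In control flies 6 subunits rose and 0 fell at 2% O2 against 6% O2 by limma, where 16.9% of all genes rose and 15.2% fell (32.1% called). Rpt6 had 252, 249 and 241 scaled FPKM in control 2% O2 libraries, against 201, 216 and 237.5 in control 6% O2 libraries (0.18 ± 0.0536, limma adjusted p = 0.0162). Rpn7, a lid subunit, had 155, 159.8 and 145.5 in control 2% O2 libraries, against 126.5, 132 and 147 in control 6% O2 libraries (0.19 ± 0.0554, limma adjusted p = 0.0181). Rpn12 had 233, 245 and 215 in control 2% O2 libraries, against 181, 196.5 and 213 in control 6% O2 libraries (0.23 ± 0.0692, limma adjusted p = 0.0183). In Rpn7 the lowest 2% O2 library lay below the highest 6% O2 library, while Rpt6 and Rpn12 did not overlap. Prosalpha2 had 372, 377 and 349 in control 2% O2 libraries, against 311, 325 and 349 in control 6% O2 libraries, with 349.0 and 348.7 as the nearest values (0.16 ± 0.0472, limma adjusted p = 0.0182). Prosbeta3 (0.16) and Rpn6 (0.13) were the other risers. This count moved with single libraries of both groups and with the scaling. It was 0 without control 6% O2 replicate 1, 4 without replicate 2 and 9 without replicate 3, 0 with unscaled values, after quantile normalisation and with only these 6 libraries fitted, 3 without control 2% O2 replicate 1, 1 without replicate 2 and 4 without replicate 3.

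Whether the genotypes differed in their response to 2% O2 was tested directly. Limma called 0 of 32 subunits, where 7.64% of all genes were called (5.43% higher, 2.21% lower). Estimates ran from -0.16 for Rpn8 to 0.19 for Prosbeta3, and 4 subunits had an unadjusted p below 0.05: Prosalpha2 (0.18 ± 0.0667, limma adjusted p = 0.112), Rpn13 (0.16 ± 0.061, limma adjusted p = 0.12), Prosbeta3 (0.19 ± 0.0774, limma adjusted p = 0.147) and Rpn8 (-0.16 ± 0.0764, limma adjusted p = 0.193). The share of all genes at an unadjusted p below 0.05 is not given. With array weights these 4 subunits were called, at limma adjusted p between 0.00772 and 0.0327. That fit gave knockdown 2% O2 replicates 1, 2 and 3 weights of 3.78, 0.543 and 0.26, so replicate 1 counted most. Without knockdown 2% O2 replicate 3, Rpn13 was called (0.20, limma adjusted p = 0.0487). A larger response of these genes in knockdown flies was therefore not shown by the fit of all libraries, nor was an equal one. In the same comparison 4 of 8 female germline markers were called lower (median -0.19) and 1 of 8 midgut markers higher (median 0.56), and the part of these markers was not tested.

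Rpt1, Rpn10 and Prosbeta4 were called in none of the 12 comparisons. Rpt1 had 199, 199 and 203 scaled FPKM in knockdown normoxia libraries, against 193, 204 and 203 in control normoxia libraries, and its average genotype difference was 0.04 ± 0.0261. Rpn10, the ubiquitin receptor that works beside Rpn13, had 186, 194 and 187 in knockdown normoxia libraries, against 193, 193 and 189 in control normoxia libraries, and its average difference was -0.00 ± 0.0257. The genotypes overlapped in both genes.

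Genes that work with the proteasome were read from lists. Of 6 proteasome genes outside the naming rule (Sem1, Pomp, REG, PI31, Uch-L5 and Usp14), 1 rose and 0 fell by limma in knockdown flies on average over oxygen levels, where 20.2% of all genes rose and 21.6% fell. The riser was Usp14, a deubiquitinase of the cap (0.14 ± 0.0332, limma adjusted p = 0.0039), which missed the threshold after quantile normalisation, where 0 rose and 1 fell. REG, the nuclear activator that caps the core in place of the 19S particle, fell at 2% O2 against normoxia in knockdown flies (-0.46 ± 0.044, limma adjusted p = 4.1e-07) and in control flies (-0.28 ± 0.044, limma adjusted p = 0.000168). REG averaged 187 scaled FPKM in knockdown 2% O2 libraries, against 258 in knockdown normoxia libraries, and 191 in control 2% O2 libraries, against 233 in control normoxia libraries. PI31, a core-binding regulator, rose in knockdown flies (0.22 ± 0.0411, limma adjusted p = 0.000268) and in control flies (0.13 ± 0.0411, limma adjusted p = 0.0211), and the control call was lost unscaled. Sem1, the smallest lid subunit, fell in knockdown flies (-0.17 ± 0.0547, limma adjusted p = 0.0134) and in control flies (-0.16 ± 0.0547, limma adjusted p = 0.0428), where the call was lost after quantile normalisation.

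Of 19 genes for ubiquitin and its conjugation, 5 rose and 0 fell by limma in knockdown flies on average, where 20.2% of all genes rose and 21.6% fell. They were led by the conjugating enzymes Ubc2 (0.21 ± 0.036, limma adjusted p = 0.000438), Ubc10 (0.12 ± 0.0228, limma adjusted p = 0.000907) and ben (0.11 ± 0.0279, limma adjusted p = 0.00518). At 2% O2 against normoxia, 5 rose and 10 fell in knockdown flies (28.5% and 27.0% of all genes), and 2 rose and 2 fell in control flies (15.4% and 14.7% of all genes). Ubi-p63E, a polyubiquitin gene, averaged 366 scaled FPKM in knockdown 2% O2 libraries, against 246 in knockdown normoxia libraries (0.58 ± 0.0647, limma adjusted p = 2.37e-06). It averaged 352 in control 2% O2 libraries, against 282 in control normoxia libraries (0.32 ± 0.0647, limma adjusted p = 0.00144). Uba1, the ubiquitin-activating enzyme, averaged 135 in knockdown 2% O2 libraries, against 208 in knockdown normoxia libraries (-0.63 ± 0.0766, limma adjusted p = 5.82e-06), and 142 in control 2% O2 libraries, against 176 in control normoxia libraries (-0.31 ± 0.0766, limma adjusted p = 0.00665). Both genes changed by more than any proteasome subunit did at 2% O2 in knockdown flies, and kept direction and call under both other scalings.

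Of 10 genes of p97 and the ubiquitin shuttles, which deliver substrates, 5 rose and 1 fell in knockdown flies on average (3 and 1 unscaled, 1 and 1 after quantile normalisation), beside 20.2% and 21.6% of all genes. The faller was Npl4, a p97 cofactor, at 163 scaled FPKM in knockdown normoxia libraries, against 273 in control normoxia libraries (-0.74 ± 0.112, limma adjusted p = 0.00104), and -0.51 ± 0.0649, limma adjusted p = 3.64e-05 on average. Rad23 (0.17 ± 0.0371, limma adjusted p = 0.00245) and Ubqn (0.11 ± 0.0294, limma adjusted p = 0.008), shuttles that carry ubiquitinated proteins, rose, Ubqn losing its call after quantile normalisation. At 2% O2 against normoxia, 2 rose and 5 fell in knockdown flies (28.5% and 27.0% of all genes), and 0 rose and 3 fell in control flies (15.4% and 14.7%), with the p97 cofactor Plap (-0.44 ± 0.0536, limma adjusted p = 5.5e-06 in knockdown flies, -0.30 ± 0.0536, limma adjusted p = 0.000596 in control flies) and the shuttle rngo (-0.41 ± 0.0701, limma adjusted p = 0.000138 in knockdown flies, -0.28 ± 0.0701, limma adjusted p = 0.00636 in control flies) lower in both.

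Among 9 regulators linked to proteasome genes, 2 rose and 3 fell in knockdown flies on average, where 41.7% of all genes were called. The transcription factor cnc averaged 60.8 scaled FPKM in knockdown normoxia libraries, against 69.3 in control normoxia libraries (-0.19 ± 0.0365, limma adjusted p = 0.00461), and was lower on average (-0.19 ± 0.0211, limma adjusted p = 1.37e-05). Hsf, the heat shock factor, rose (0.25 ± 0.0399, limma adjusted p = 0.000202), as did Pngl, an N-glycanase (0.12 ± 0.0251, limma adjusted p = 0.00203). At 2% O2 against normoxia, 5 rose and 1 fell in knockdown flies, and 3 rose and 1 fell in control flies (unscaled, 2 and 1 in both genotypes), where 55.4% of all genes were called in knockdown flies and 30.1% in control flies. Among the risers was cnc (0.18 ± 0.0365, limma adjusted p = 0.000626 in knockdown flies, 0.13 ± 0.0365, limma adjusted p = 0.0128 in control flies). Xrp1, a stress-induced transcription factor, averaged 227 in knockdown 2% O2 libraries, against 62.7 in knockdown normoxia libraries (1.83 ± 0.136, limma adjusted p = 5.36e-08), and 166 in control 2% O2 libraries, against 76.7 in control normoxia libraries (1.11 ± 0.136, limma adjusted p = 3.04e-05).

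Of 3 complexes set beside the proteasome, 2 resemble its cap in build, and the third folds proteins. Over all tested genes 20.2% rose and 21.6% fell on average, 28.5% rose and 27.0% fell at 2% O2 against normoxia in knockdown flies, and 15.4% rose and 14.7% fell in control flies. In the COP9 signalosome, 1 of 8 tested genes rose and 0 fell by limma in knockdown flies on average, with 0 calls under either other scaling. In the 2% O2 comparison with normoxia 0 rose and 4 fell in knockdown flies, and 0 rose and 1 fell in control flies, led by CSN4 (-0.30 ± 0.0515, limma adjusted p = 0.000144 in knockdown flies, -0.17 ± 0.0515, limma adjusted p = 0.0213 in control flies). In the translation factor eIF3, 9 of 13 rose and 0 fell by limma in knockdown flies on average, among them eIF3l (0.21 ± 0.0252, limma adjusted p = 2.68e-05) and eIF3k (0.24 ± 0.0332, limma adjusted p = 8.29e-05). Of its genes at 2% O2 against normoxia, 4 rose and 2 fell in knockdown flies (4 and 4 unscaled, 3 and 5 after quantile normalisation), and 1 rose and 1 fell in control flies. Of the 8 subunits of the chaperonin TRiC, 4 rose and 1 fell in knockdown flies on average (1 and 1 after quantile normalisation), CCT4 being the faller (-0.28 ± 0.0346, limma adjusted p = 3.18e-05). At 2% O2 against normoxia 0 rose and 6 fell in knockdown flies, and 0 rose and 4 fell in control flies. Whether these lists differ from the proteasome subunits was not tested.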

How the data were processed

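The authors deposited 1 table per library with FPKM for 17658 genes. The submitters' processing notes name TopHat2, HTSeq, Cufflinks and build BDGP6, with no versions; the order of these tools and the kit's strandedness are not given in the sources used here. Coordinates are those of the tables, counted from 1.

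Each library's FPKM were scaled by a median-of-ratios factor from 9068 genes above 1 FPKM in every library. The 9921 genes whose mean reached 1 FPKM were fitted as log2(scaled FPKM + 1) with limma 3.58.1 in R 4.3.3 (6 group means, all 18 libraries, trend and robust eBayes). Fold changes of low genes are understated by the pseudocount. The 12 comparisons were adjusted separately by Benjamini-Hochberg, and the procedure was tested on simulated data. Python 3.11.15, pandas 2.3.3, scipy 1.17.1 and matplotlib 3.10.9 made the tables and figures.

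Values per library are given for the called subunits with the 4 smallest adjusted p in each direction of a comparison and for others where they are described, and from each other list for at most 3 called genes by adjusted p. Members and lists were chosen with earlier results of these data known. Of 143 list entries, 113 matched a gene symbol. The alternatives changed the pseudocount to 0.1 or 5, dropped the filter or raised it to 5 FPKM, and used no scaling, quantile normalisation, a replicate block, only the groups compared, array weights, eBayes without the robust option and leaving out each library. The estimate of the array weights stopped before its tolerance for some genes, and results with it are given as they came out. Promoter motifs and protein sequences were not analysed here.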

Additional observations from a re-analysis of the deposited data

Results flagged for a closer look

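The response to 2% O2 differed between knockdown and control flies for Tudor-SN and for 8 genes of the other lists, in a comparison that called 7.64% of all tested genes. Tudor-SN itself differed by -1.32 (knockdown response minus control response, limma adjusted p = 2.74e-05): it averaged 5.56 scaled FPKM in knockdown 2% O2 libraries, against 19.9 in knockdown normoxia libraries, and 168 in control 2% O2 libraries, against 214 in control normoxia libraries. Xrp1 differed too (0.72 ± 0.192, limma adjusted p = 0.0348). The eIF3 subunit eIF3g1 differed as well (0.25 ± 0.0665, limma adjusted p = 0.0313), a call lost without scaling and after quantile normalisation, as did eIF3j (-0.19 ± 0.0514, limma adjusted p = 0.038). Of 8 female germline markers, 4 were called lower, namely orb (-0.58 ± 0.13, limma adjusted p = 0.0152), aub (-0.35 ± 0.088, limma adjusted p = 0.0275), osk (-0.28) and BicD (-0.26 ± 0.0651, limma adjusted p = 0.0264). Of these, aub averaged 33.1 scaled FPKM in knockdown 2% O2 libraries, against 49.2 in knockdown normoxia libraries, and 37.4 in control 2% O2 libraries, against 43.6 in control normoxia libraries. The midgut marker Mal-A1 was called higher (1.73 ± 0.485, limma adjusted p = 0.0475), at 264 in knockdown 2% O2 libraries, against 19.1 in knockdown normoxia libraries, and 295 in control 2% O2 libraries, against 75.8 in control normoxia libraries. Limma called 0 of 32 proteasome subunits in this comparison, with 4 at an unadjusted p below 0.05 and 4 called with array weights. Shares of all genes at an unadjusted p below 0.05 or called with array weights are not given.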

How the results depend on the processing

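Counts of called subunits moved with the processing. Shares of all genes called under each alternative, fits without single libraries included, are not given here or above. The moves therefore cannot be read as particular to the subunits. With no scaling they were 1 for knockdown against control in normoxia, 3 at 2% O2, 8 for 2% O2 against normoxia in knockdown flies (7 lower), 0 for 2% O2 against 6% O2 in control flies and 6 in knockdown flies (all lower). With quantile normalisation these were 1, 1, 9 (8 lower), 0 and 8 (6 lower), with 2 for the genotypes at 6% O2, 15 for their average and 1 for 2% O2 against normoxia in control flies. The majority direction thus reversed in knockdown flies at 2% O2 against normoxia and against 6% O2. Array weights gave 6 for the genotypes in normoxia, 18 at 2% O2, 19 for both 2% O2 comparisons in knockdown flies, 1 for 2% O2 against normoxia in control flies and 4 for the difference of 2% O2 responses. With only the groups compared, the counts were 4 at 6% O2 and 2 at 2% O2 between genotypes, 0 for both 2% O2 comparisons in control flies, and 6 for both in knockdown flies. Without the filter they were 0 in normoxia and 1 for 2% O2 against normoxia in control flies. The cause was not tested.

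Leaving out single libraries gave 0 to 3 calls between genotypes in normoxia, 2 to 22 at 6% O2, 3 to 10 at 2% O2 and 20 to 27 on average. It gave 0 to 2 for 2% O2 against normoxia in control flies and 6 to 11 in knockdown flies, where the 11 without knockdown 2% O2 replicate 2 were 5 higher and 6 lower. It gave 0 to 9 for 2% O2 against 6% O2 in control flies and 6 to 12 in knockdown flies, 0 to 1 for the difference of 2% O2 responses, and 0 throughout for both 6% O2 comparisons with normoxia and the difference of 6% O2 responses. Among named subunits, 526 of the alternative results kept their call, 107 lost it and 0 changed sign. The Tudor-SN difference kept its call in all 48.

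Same-numbered libraries are not known to be pairs: 11 of 45 same-numbered pairs from different groups had deviations from the group means that correlated above 0.1 (median -0.0137). With the replicate block, the count for 2% O2 against normoxia in control flies was 1, and no other count moved by over 1.5 times. FPKM without read totals leaves the counting error of each value unknown. The planned searches of promoter motifs and comparisons of protein sequences were not run.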
